A study of Mus musculus with 4 samples.

Results

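Open chromatin of mouse induced pluripotent stem cells (iPSC) was set against that of mouse embryonic stem cells (ESC), each measured in 1 ATAC-seq library. In ATAC-seq a transposase inserts sequencing adapters into accessible DNA, and a peak marks a site with many insertions. Neighbouring peaks at most 10 bp apart were joined within each list, and each joined peak, called a stretch here, was shared if it overlapped a stretch of the other list by at least 1 bp. On the 19 autosomes the comparison covered 154154 stretches, 81885 in the iPSC list and 72269 in the ESC list, of 302876 in all 4 libraries of the series. Of these, 29884 iPSC stretches and 20964 ESC stretches were in their own list only, and they are called iPSC-only and ESC-only.

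Per the labels, the iPSC carried the strain and transgene entry A12 (Mbd3 flox/-), in which 1 allele of Mbd3, a subunit of the NuRD chromatin remodelling complex, is floxed and the other is absent. The ESC were the line v6.5, with no transgene entry. The other libraries of the series served as landmarks. The day 9 intermediate, cells on the way from fibroblasts to neural stem cells by transdifferentiation with Oct4, Sox2, Klf4 and Myc (OSKM), came from B6/129 fibroblasts with Rosa26-TdTomato and Col1a-OSKM transgenes and a Nanog-CreER reporter. They were given doxycycline, 4-hydroxytamoxifen and a JAK1 inhibitor, and were sorted as tdTomato+ cells without feeder cells. Its source field gives day 6 and its title day 9. The mouse embryonic fibroblasts (MEF) carried the same A12 (Mbd3 flox/-) entry as the iPSC. Each library started from 50000 cells, per the labels, with a transposition of 30 minutes (37 °C) followed by 12 cycles of PCR. The sources used here do not give growth conditions, passage number or feeder cells for the iPSC and ESC, nor whether the floxed Mbd3 allele had been recombined. With 1 library a side no difference below has a replicate check and no p-value is given, and cell type, strain, genotype and library cannot be told apart.

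Pluripotent cells of the mouse are held in that state by a network of transcription factors around Oct4 (encoded by Pou5f1), Sox2 and Nanog. Reprogramming with Oct4, Sox2, Klf4 and Myc sets up the same network in somatic cells. Promoters rich in CpG dinucleotides tend to be accessible in most cell types, while promoters poor in CpG and distal enhancers tend to be accessible in few. Imprinted genes, which are expressed from 1 parental allele, and germline genes, many of which are held silent by DNA methylation, are classes in which iPSC and ESC have often been compared.

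The promoters printed here belong to genes of those classes whose start lay under a stretch in 1 list only. They are examples and not all such promoters, and their CpG counts do not follow the order of the class medians given below. Each is the 250 bases before an annotated start, from RefSeq on GRCm38.p6, the assembly that mm10 names, read 5′ to 3′ on the strand of the gene with CpG dinucleotides in capitals. Pou5f1 encodes the pluripotency factor Oct4 and Esrrb an orphan nuclear receptor of the naive network. Asz1 acts in the piRNA pathway of germ cells. Nodal is a TGF-beta family ligand, Meg3 a maternally expressed imprinted non-coding RNA, and Sycp1 a component of the meiotic synaptonemal complex.
Pou5f1, stretch in iPSC only, chr17:35505782-35506031, plus strand, 8 CpG: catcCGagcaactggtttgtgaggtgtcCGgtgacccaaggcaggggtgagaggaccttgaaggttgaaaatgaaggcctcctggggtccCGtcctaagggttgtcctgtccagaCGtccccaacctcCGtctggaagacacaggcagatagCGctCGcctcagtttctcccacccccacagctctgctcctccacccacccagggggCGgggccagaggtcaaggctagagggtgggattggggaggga
Esrrb, upstream start, stretch in iPSC only, chr12:86360867-86361116, plus strand, 6 CpG: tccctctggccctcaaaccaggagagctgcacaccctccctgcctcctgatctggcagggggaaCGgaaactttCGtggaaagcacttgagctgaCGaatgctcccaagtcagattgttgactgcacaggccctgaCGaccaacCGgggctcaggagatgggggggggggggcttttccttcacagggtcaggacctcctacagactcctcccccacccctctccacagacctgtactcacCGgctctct
Asz1, stretch in iPSC only, chr6:18109062-18109311, minus strand, 15 CpG: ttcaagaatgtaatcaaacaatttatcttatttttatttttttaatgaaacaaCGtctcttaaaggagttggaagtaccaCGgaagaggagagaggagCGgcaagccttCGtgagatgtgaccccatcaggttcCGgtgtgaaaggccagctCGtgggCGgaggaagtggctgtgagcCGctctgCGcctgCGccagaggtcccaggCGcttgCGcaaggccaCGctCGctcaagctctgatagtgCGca
Esrrb, downstream start, stretch in ESC only, chr12:86421394-86421643, plus strand, 3 CpG: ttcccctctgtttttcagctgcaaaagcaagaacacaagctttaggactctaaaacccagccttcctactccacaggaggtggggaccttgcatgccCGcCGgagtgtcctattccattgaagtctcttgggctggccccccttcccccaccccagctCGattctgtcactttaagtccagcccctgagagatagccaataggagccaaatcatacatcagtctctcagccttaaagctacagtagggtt
Nodal, stretch in ESC only, chr10:61417722-61417971, plus strand, 3 CpG: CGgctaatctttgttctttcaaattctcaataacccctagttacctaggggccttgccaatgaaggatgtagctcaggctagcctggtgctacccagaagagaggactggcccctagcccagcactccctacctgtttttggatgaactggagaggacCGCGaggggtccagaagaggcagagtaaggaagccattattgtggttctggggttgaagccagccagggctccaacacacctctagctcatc
Meg3, stretch in ESC only, chr12:109540746-109540995, plus strand, 10 CpG: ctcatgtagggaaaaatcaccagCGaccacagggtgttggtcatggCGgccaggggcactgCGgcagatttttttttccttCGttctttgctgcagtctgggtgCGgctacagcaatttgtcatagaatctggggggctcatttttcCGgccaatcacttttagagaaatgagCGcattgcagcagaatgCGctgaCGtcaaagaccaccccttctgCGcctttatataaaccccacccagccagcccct
Sycp1, stretch in ESC only, chr3:102936101-102936350, minus strand, 17 CpG: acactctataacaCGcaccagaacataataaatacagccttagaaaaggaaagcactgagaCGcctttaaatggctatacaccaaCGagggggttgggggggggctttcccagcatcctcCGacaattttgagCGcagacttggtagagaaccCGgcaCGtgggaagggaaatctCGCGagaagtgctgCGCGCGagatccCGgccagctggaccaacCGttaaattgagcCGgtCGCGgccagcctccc

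The overlap of the lists was largest among their tallest stretches. In the iPSC list 52001 of 81885 stretches were shared, 63.5% (Wilson 95% interval 63.2 to 63.8). The 29884 others made up 36.5% of the list. In the ESC list 51305 of 72269 were shared, 71.0% (70.7 to 71.3), and the 20964 others made up 29.0%. Intervals on shares throughout are Wilson 95% intervals over stretches, windows or genes, and cover counting error only. Counted in bases, 43.7 Mb were covered in both lists, which was 62.1% of the 70.4 Mb in iPSC and 65.7% of the 66.5 Mb in ESC. The Jaccard index, bases in both over bases in either, was 0.469.

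Height is the whole-number signal that the authors' files give for each peak, and the tallest peak stands for a stretch. It is not scaled to library size, so heights rank sites within a list and their levels are not compared between libraries as accessibility. Shared stretches had a median height of 65 in iPSC and 53 in ESC, while iPSC-only stretches had a median of 39 and ESC-only stretches of 32. Each list was cut by height into 10 equal classes, and in the lowest of them 42.1% (41.0 to 43.1) of iPSC stretches and 46.4% (45.3 to 47.6) of ESC stretches were shared. The shares were smallest in the second lowest class, at 36.8% (35.8 to 37.9) in iPSC and 44.8% (43.6 to 45.9) in ESC. In the tallest class the shares were 96.3% (95.9 to 96.7) in iPSC and 98.8% (98.5 to 99.0) in ESC. Shared stretches were also wider, with medians of 870 bp in iPSC and 910 bp in ESC against 650 bp for both iPSC-only and ESC-only stretches. Of stretches at least 3 kb wide, 229 of 249 in iPSC and 277 of 279 in ESC were shared.

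**Figure D1:**
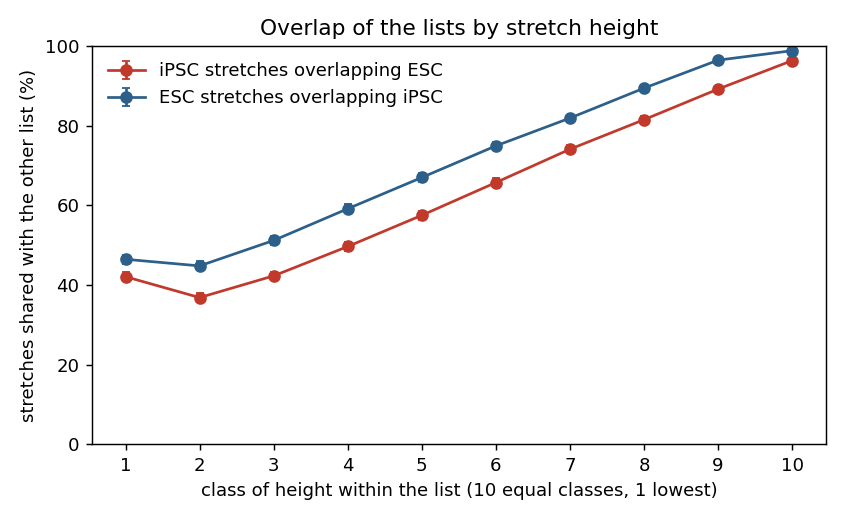
Share of stretches (%, points, with Wilson 95% intervals) that overlap the other list, by 10 equal classes of height within each list, for iPSC (red) and ESC (blue). The share is 42.1% in iPSC and 46.4% in ESC in the lowest class and 36.8% in iPSC and 44.8% in ESC in the second. It reaches 96.3% in iPSC and 98.8% in ESC in the tallest.

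The boundary between shared and one-list-only stretches was crossed by few sites. Of the iPSC-only stretches, 59 (0.197%) lay within 10 bp of an ESC stretch and 3254 (10.9%) within 1 kb. Of the ESC-only stretches, 108 (0.515%) lay within 10 bp of an iPSC stretch and 3472 (16.6%) within 1 kb. On the other side of the boundary, 42 shared iPSC stretches and 48 shared ESC stretches overlapped by exactly 1 bp, while the median overlap was 740 bp for iPSC stretches and 750 bp for ESC stretches. Over the 52001 shared iPSC stretches, heights in iPSC and in the overlapping ESC stretch had a Spearman correlation of 0.522, a description across sites of 1 pair of libraries.

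The 2 sets of one-list-only stretches differed in where they lay. Of iPSC-only stretches 4.88% (4.64 to 5.13) lay within 1 kb of an end of a protein-coding gene, against 10.6% (10.2 to 10.99) of ESC-only stretches. Among shared stretches the shares were 26.6% in iPSC and 26.5% in ESC. Both ends of a gene are counted because the gene table used has no strand. Read the other way, 90.5% of the 15294 iPSC stretches at gene ends were shared and 86.0% of the 15835 in ESC, while away from gene ends 57.3% of iPSC stretches and 66.8% of ESC stretches were shared. The larger one-list-only fraction was thus in iPSC away from gene ends and in ESC at them.

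ESC-only stretches coincided with fibroblast and intermediate peaks more often than iPSC-only stretches did. A MEF peak overlapped 12.2% (11.8 to 12.6) of iPSC-only stretches and 23.6% (23.0 to 24.1) of ESC-only stretches. An intermediate peak overlapped 15.1% (14.7 to 15.5) of iPSC-only stretches and 31.7% (31.0 to 32.3) of ESC-only stretches. In neither of those libraries was there a peak at 76.4% of iPSC-only and 55.9% of ESC-only stretches. The order held at each distance class, since away from gene ends 11.5% of iPSC-only and 20.6% of ESC-only stretches had a MEF peak, and at gene ends 25.0% of iPSC-only and 48.9% of ESC-only stretches did. The iPSC shared their strain entry with MEF, and the part of strain in these shares cannot be told apart from that of cell type, genotype or library. Shared stretches had MEF peaks at 44.4% in iPSC and 44.2% in ESC, above both one-list-only sets.

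The iPSC-only share was above the ESC-only share except in the most gene-rich windows, where the order was reversed. The autosomes were divided into 2412 windows of 1 Mb. In windows with 0, 1 to 4 and 5 to 9 protein-coding genes, 41.9%, 41.6% (40.9 to 42.2) and 40.1% of iPSC stretches were iPSC-only. In the same windows 29.7%, 26.2% (25.6 to 26.9) and 25.6% of ESC stretches were ESC-only, so both shares were lower at 5 to 9 genes than at 0. With 10 to 19 genes the shares were 34.2% in iPSC and 30.7% in ESC, and with 20 or more genes they were 22.0% (21.3 to 22.8) in iPSC and 34.6% (33.8 to 35.4) in ESC. There were thus 2.02 iPSC-only stretches for each ESC-only stretch in windows with 1 to 4 genes and 0.549 in those with 20 or more. Windows with 0, 5 to 9 and 10 to 19 genes had 1.72, 1.96 and 1.19. Of all windows, 1633 held more iPSC-only stretches, 667 more ESC-only stretches and 112 equal numbers.

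Whole chromosomes with more genes mostly had lower ratios, with exceptions. Chromosome 1, with 6.16 protein-coding genes per Mb, had 2.03 iPSC-only stretches per ESC-only stretch. Chromosome 11, with 13.2 genes per Mb, had 0.806, and chromosome 19, with 11.5, had 0.586. These were the only 2 of the 19 autosomes on which ESC-only stretches were the more numerous. Chromosome 7, the most gene-dense at 13.97 genes per Mb, had 1.14, and chromosome 17, at 11.2, had 1.28. Over the 19 autosomes genes per Mb and the ratio had a Spearman correlation of -0.812 and a Pearson correlation of -0.761, given as a description because all chromosomes come from the same pair of libraries.

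**Figure D2:**
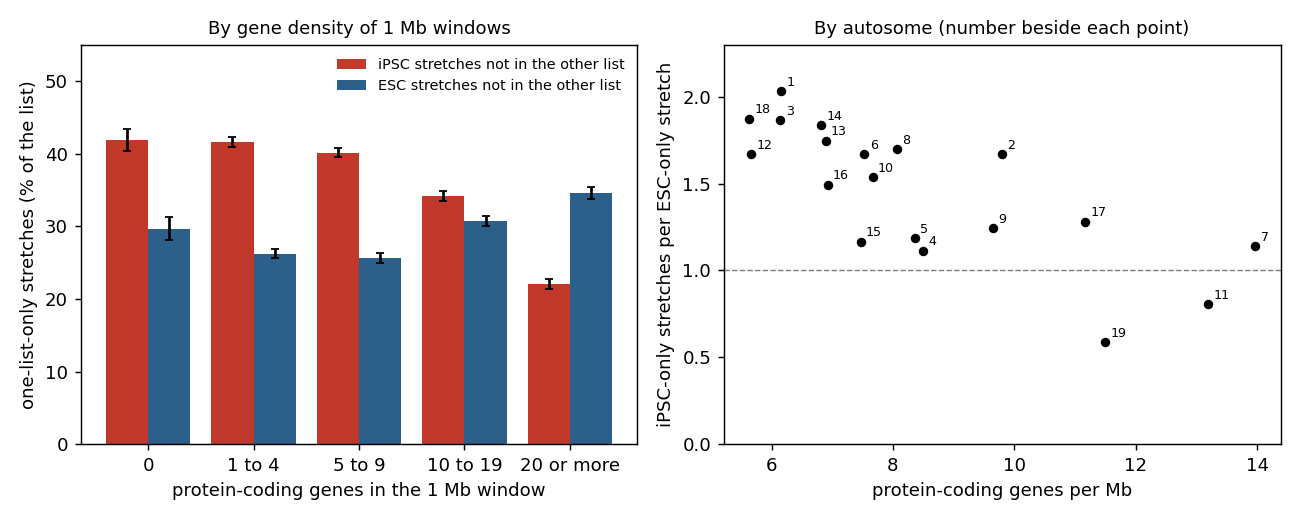
Left, share of iPSC stretches (red) and ESC stretches (blue) that are in their own list only (%, with Wilson 95% intervals), by protein-coding genes in the 1 Mb window. Right, iPSC-only stretches per ESC-only stretch against protein-coding genes per Mb for each autosome, with a dashed line at equal numbers; chromosomes 11 (0.806) and 19 (0.586) lie under it.

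The windows at the extremes give examples. At chr15:25000001-26000000, which holds 4 genes including Basp1 and the unconventional myosin gene Myo10, 55 stretches were iPSC-only and 8 ESC-only. At chr17:5000001-6000000, around Arid1b, a subunit of the BAF chromatin remodelling complex, 49 were iPSC-only and 7 ESC-only. At chr10:80000001-81000000, with 54 genes, 10 were iPSC-only and 55 ESC-only, and in the next window, with 50 genes, 4 were iPSC-only and 53 ESC-only. The one-list-only sets differed in their MEF peaks within every density class as well. In windows with 0 genes 3.06% of iPSC-only and 7.76% of ESC-only stretches had a MEF peak, and in windows with 20 or more genes 19.4% of iPSC-only and 37.1% of ESC-only stretches had one.

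Long genes carried the most iPSC-only stretches. Each stretch was given to the nearest protein-coding gene body within 100 kb, which placed 69681 iPSC stretches, 35.2% of them iPSC-only, and 62732 ESC stretches, 29.0% of them ESC-only. Sox5, which encodes a SoxD transcription factor and spans 954 kb, had the most, with 42 iPSC-only stretches among 59 and 8 ESC-only among 23. Tenm3 and Tenm4, teneurin adhesion molecules of neurons, had 37 and 28 iPSC-only stretches, against 3 and 6 ESC-only stretches. The axon guidance receptor gene Robo1 had 33 iPSC-only and 7 ESC-only stretches, and Slit3, which encodes a Slit ligand of Robo receptors, had 30 iPSC-only and 2 ESC-only. The sialyltransferase gene St6galnac3 had 38 iPSC-only and 5 ESC-only, the cyclic AMP phosphodiesterase gene Pde4d 37 and 15, and Ptprn2 30 and 5. Myo10 had 29 iPSC-only and 3 ESC-only stretches, and Arid1b had 27 and 1. These counts follow gene length in part by construction, since long bodies collect more stretches.

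The genes with the most ESC-only stretches had smaller counts. BC107364 had 2 iPSC-only and 16 ESC-only stretches, Kazn, which encodes a junction-associated protein, also 2 and 16, and Tmem132c 2 and 16. With assignment within 20 kb the ESC-only counts were 7 at BC107364 and 10 at Tmem132c. The neuron navigator gene Nav2 had 15 iPSC-only and 16 ESC-only, so it lay high in both directions. Auts2, which encodes a Polycomb-associated regulator, had 18 iPSC-only and 15 ESC-only, and Macrod2 had 14 and 15. Camta1 had 7 iPSC-only and 15 ESC-only stretches, Sgms1, a sphingomyelin synthase gene, 5 and 15, and Tmem132d also 5 and 15. Pde4d was among the 10 highest in both directions. Gene bodies of at least 300 kb held 12.1% (11.7 to 12.4) of iPSC-only stretches and 8.23% (7.87 to 8.61) of ESC-only stretches, beside 8.76% of shared iPSC stretches and 8.83% of shared ESC stretches.

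Promoters split by CpG content. Of 31396 annotated promoter windows, each 250 bases before and 50 after a start, 14182 had a stretch in both lists and 15066 in neither. A window with a stretch is called open here, and a window without one was not shown to be closed. A stretch was present in iPSC only at 911 windows (2.90%) and in ESC only at 1237 (3.94%). Windows open in iPSC only had a median of 5 CpG and 52.0% GC, and those open in ESC only a median of 10 CpG and 55.7% GC. Windows with a stretch in both lists had 21 CpG and those with none had 3. Among windows with at most 2 CpG, 159 were open in iPSC only and 102 in ESC only, a ratio of 1.56. Among windows with 21 or more CpG, 30 were open in iPSC only and 295 in ESC only, a ratio of 0.102. Between them the ratio was 1.498 at 3 to 5 CpG, 0.915 at 6 to 10 and 0.349 at 11 to 20, so that it fell in each class.

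**Figure D3:**
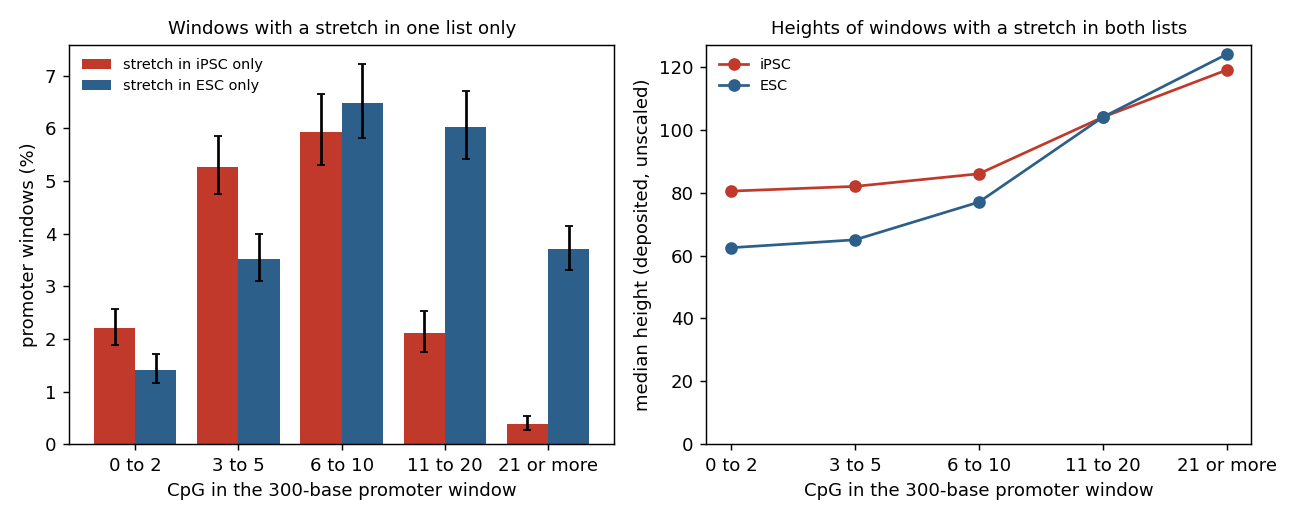
Left, promoter windows with a stretch in iPSC only (red) or in ESC only (blue) as a share of all windows of the CpG class (%, with Wilson 95% intervals). Right, median unscaled height in iPSC and in ESC of the windows with a stretch in both lists; the iPSC median is 80.5 and the ESC median 62.5 at 0 to 2 CpG, and 119 in iPSC and 124 in ESC at 21 or more.

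At windows with a stretch in both lists the iPSC stretch was the taller more often in the 3 classes with the fewest CpG, without a steady order among them. It was the taller at 63.6% (57.2 to 69.6) of 228 windows with 0 to 2 CpG, at 68.3% (64.7 to 71.8) of 657 with 3 to 5 and at 64.6% (62.2 to 67.0) of 1482 with 6 to 10. It was the taller at 52.8% (51.3 to 54.3) of 4248 windows with 11 to 20 CpG. At windows with 21 or more CpG it was the taller at 49.7% (48.6 to 50.8) of 7567, with medians of 119 in iPSC and 124 in ESC. Median GC content differed between the window classes as well, and the part of base composition or of either library in this split was not tested. Promoters open in ESC only had a MEF peak more often, at 55.3% (52.5 to 58.0), than those open in iPSC only, at 27.0% (24.2 to 30.0).

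Short words of pluripotency factors were counted in the 300-base windows on both strands. The octamer core ATGCAAA, the POU word of Oct4, was in 6.15% (4.76 to 7.90) of windows open in iPSC only and 2.91% (2.11 to 4.00) of those open in ESC only. It was in 3.57% of windows open in both, 5.77% of those open in neither and 4.68% of all. The SOX word CATTGTT was in 4.72% (3.52 to 6.30) of windows open in iPSC only and 1.86% (1.24 to 2.77) of those open in ESC only, beside 1.76% in both, 5.72% in neither and 3.75% of all. Median GC was 52.0% in windows open in iPSC only, 55.7% in those open in ESC only and 46.7% in those open in neither, and the shares were not compared at matched GC. The KLF word CACACCC was in 11.2% (9.31 to 13.4) of windows open in iPSC only and 9.14% (7.65 to 10.9) of those open in ESC only, and in 8.001% of all. A match is a description of the letters and not a bound site.

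Genes were then classed by stretches within 1 kb of either end. The end height of a gene in a list is that of its tallest such stretch. Heights in iPSC and ESC may thus come from different sites or different ends, and need not lie at a start. Of 20661 protein-coding genes on the autosomes, 546 (2.64%) had an end stretch in iPSC only and 965 (4.67%) in ESC only. Both lists had one at 13111 genes (63.5%) and neither at 6039 (29.2%). Of the iPSC-only genes 35.7% had an end stretch in MEF, and of the ESC-only genes 61.0%. The tallest end stretches of these genes were low, with medians of 45 in iPSC for the iPSC-only genes and 39 in ESC for the ESC-only genes, against 108 in iPSC and 109 in ESC for genes in both.

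Most pluripotency genes had end stretches in both lists. Of 31 genes, 24 were in both lists, 4 in iPSC only, 2 in ESC only and 1 in neither. Nanog had an end height of 152 in iPSC and 105 in ESC, with 65 in the intermediate and none listed in MEF. Sox2 had 173 in iPSC and 135 in ESC, and Zfp42, a zinc finger gene marking naive cells, had 400 in iPSC and 219 in ESC. Klf4 had 222 in iPSC and 197 in ESC. Lin28a, which encodes an RNA-binding inhibitor of let-7 miRNAs, had the lower height in iPSC, at 44 against 108 in ESC, and so did the epiblast factor gene Utf1, at 87 in iPSC and 150 in ESC. As a check of the labels, 28 of the 31 genes had an end stretch in iPSC and 26 in ESC, against 21 in the intermediate and 13 in MEF. Over all protein-coding genes the shares were 66.1% in iPSC, 68.1% in ESC, 63.3% in the intermediate and 65.5% in MEF.

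The calls at gene ends depend on the 1 kb window. Of 46 listed genes in 1 list only, 15 had a stretch of the other list within 2.5 kb of an end, so that at 2.5 kb they would be in both. These were Prdm14, Tcl1, Ddr2 and Cdh5 of the 12 in iPSC only. Of the 34 in ESC only they were Dppa3, Nodal, Sall2, Meg3, Tbx6, Tfap2c, Krt7, Hoxa3, Hoxd3, Chd3 and Axin2.

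The 4 genes in iPSC only were Pou5f1, Esrrb, Prdm14 and Tcl1. Esrrb had an end height of 66 in iPSC and no end stretch in the other 3 libraries. At the promoters printed above, its upstream start had the iPSC stretch, and its downstream start, where annotated transcripts also begin, had an ESC stretch of height 30 and a MEF peak, and none in iPSC. Prdm14, a regulator of naive pluripotency and germ cell fate, had 74 in iPSC and none elsewhere, with the nearest ESC stretch 1.30 kb away. Tcl1, an Akt co-activator, had 78 in iPSC and 48 in the intermediate, with the nearest ESC stretch 1.38 kb away. In ESC only were Dppa3, which encodes Stella, at 41 in ESC with an iPSC stretch 1.02 kb away, and the Nodal antagonist gene Lefty2 at 24 in ESC and 29 in MEF. Nr5a2 had no end stretch in either list, but an inner start of the gene had a stretch of 101 in iPSC and 125 in ESC. Gene ends are those of the longest annotated span, so an inner start under a stretch is not counted there.

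Pou5f1 had the tallest end stretch of the 546 genes in iPSC only. In iPSC a single stretch of 17700 bp at chr17:35497551-35515250, the widest of the list, covered the whole gene, which lies at 35506032 to 35510777 on the plus strand. It was made of 25 peaks. The tallest, of height 1330, lay before the gene at 35503231 to 35504471, the peak over the start had 790, a peak at the 3′ part of the gene had 655 and the last, beyond the gene, had 680. The ESC list had no stretch there at all. Its nearest were at 35490271 to 35491120, with height 45, and at 35516221 to 35517740, with height 181. Farther out, iPSC stretches of 33 and 53 overlapped ESC stretches of 48 and 45. No MEF or intermediate peak overlapped the iPSC stretch.

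Pou5f1 is a defining gene of ESC, and the ESC list therefore goes against its label at this locus, while at Nanog, Sox2 and Zfp42 it had end stretches. Reads were not used here, and whether signal was present in ESC and not listed cannot be told from the lists. The iPSC stretch was itself unusual, reaching 1330 beside end heights of 152 at Nanog and 173 at Sox2 in iPSC. Whether all of its signal came from the native locus was not tested. Of 8 other protein-coding genes within 100 kb of Pou5f1, Tcf19 and H2-Q7 had end stretches in both lists and 2300002M23Rik in neither. The other 5, namely H2-Q6, H2-Q10, Cchcr1, Psors1c2 and Cdsn, had them in ESC only, beside 4.67% of all protein-coding genes. At Tcf19 the iPSC end stretch was the Pou5f1 stretch itself, and the ESC end stretch, of height 181, did not overlap it.

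**Figure D4:**
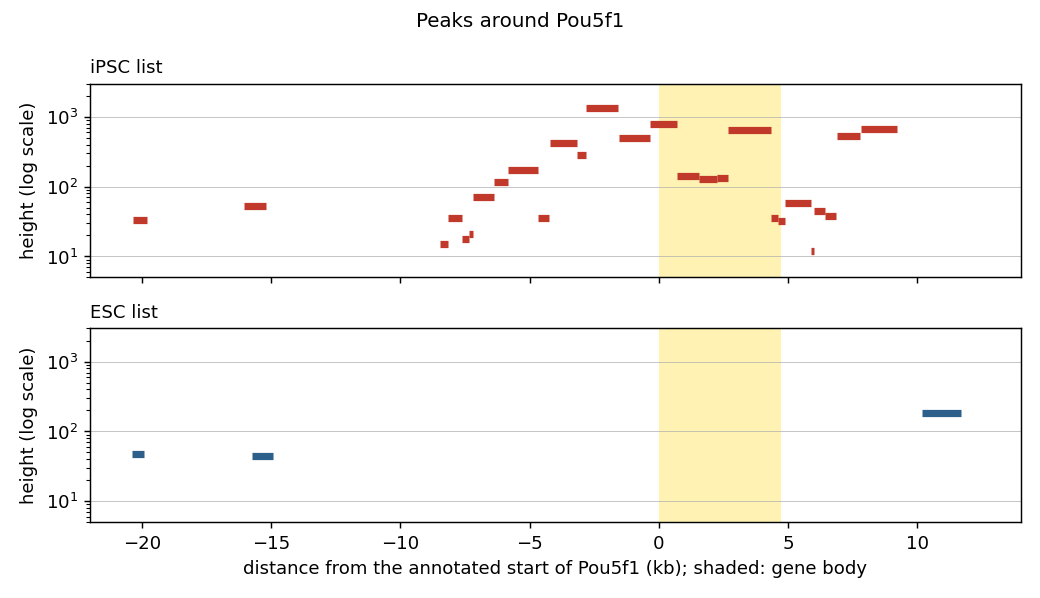
Peaks around Pou5f1 in the iPSC list (above) and the ESC list (below), each drawn as a bar over its width at its unscaled height (log scale), against distance in kb from the annotated start; the gene body is shaded. The 25 iPSC peaks over and beside the gene reach 1330, and no ESC peak lies there.

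The primed epiblast list held 16 genes of the later, post-implantation state, with 11 in both lists, 1 in iPSC only and 3 in ESC only. Over all protein-coding genes 63.5% were in both, 2.64% in iPSC only and 4.67% in ESC only. Nodal had an end height of 122 in ESC and none in iPSC, with 39 in MEF and 49 in the intermediate, but an iPSC stretch lay 1.37 kb from an end. Fgf15, at 30, and Sall2, at 23, were also in ESC only, and an inner start of Sall2 had 53 in iPSC and 60 in ESC. Cer1, a secreted antagonist of Nodal and BMP, had 51 in iPSC and no end stretch in ESC. Fgf5, Otx2, T and Foxd3 were in both lists, with heights of 54, 168, 58 and 76 in iPSC and 44, 116, 33 and 46 in ESC. Of 15 genes of the 2-cell stage, which include the Zscan4 family, 14 had no end stretch in either list, and the exception was Eif1a. Many members of these families are near-identical copies, at which placement of reads is uncertain.

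Among 27 imprinted genes 20 were in both lists, 1 in iPSC only, 1 in ESC only and 5 in neither. Meg3, in the Dlk1 to Dio3 domain on chromosome 12, was the gene in ESC only, with 54 in ESC, 54 in MEF and none in iPSC or the intermediate. A stretch inside the gene, 1.63 kb from its start, was in both lists and taller, at 103 in iPSC and 80 in ESC. Of the other RNAs of that domain, Mirg had 79 in iPSC and 58 in ESC and Rian had none in either. Dlk1 had 34 in iPSC and 27 in ESC. These are end heights. The promoter window at the start of Mirg had no stretch in iPSC or ESC, and that of Dlk1 had one in ESC only. Snrpn was in iPSC only by its outermost end, at height 30, but at an inner start it had 186 in iPSC and 48 in ESC. At genes in both lists the iPSC height was at least 2 times the ESC height for 8 of 20 imprinted genes, beside 1514 of 13111 (11.5%) of all protein-coding genes in both lists. The paternally expressed Peg10 and Sgce, which share a start region, had the same stretch, with 527 in iPSC and 41 in ESC. Peg3 had 828 in iPSC and 176 in ESC, Nap1l5 had 163 and 51, and Plagl1 had 172 and 71. Since neighbours share stretches, these 8 genes are fewer than 8 separate sites.

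Of 20 germline genes 13 were in both lists, 1 in iPSC only, 2 in ESC only and 4 in neither, beside 63.5% in both and 29.2% in neither over all protein-coding genes. Asz1 had 84 in iPSC and none in the other libraries. Sycp1 had 44 in ESC and Tex12, another synaptonemal complex gene, 30 in ESC, and neither had an end stretch in the other 3 libraries. Dazl, an RNA-binding regulator of germ cells, had 534 in iPSC and 236 in ESC, Sycp3 had 151 and 45, and the helicase gene Ddx4 had 104 and 45. In 4 of the 13 genes in both lists the iPSC height was at least 2 times the ESC height, beside 11.5% of all genes in both lists.

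Lineage genes, many of which are held poised in pluripotent cells, were mostly in both lists. For the neural list 22 of 23 autosomal genes had end stretches in both, and Six3, at 33 in ESC, was in ESC only. Counted over all stretches assigned to the neural genes, 60 of 198 in iPSC were iPSC-only (30.3%) and 20 of 150 in ESC were ESC-only (13.3%), beside 35.2% in iPSC and 29.0% in ESC for all genes. The 17 mesoderm and endoderm genes had 11 in both lists, Mesp1 in iPSC only at 36, and Mixl1 at 51 and Tbx6 at 50 in ESC only. Of those 11, 5 had an iPSC height at least 2 times that of ESC, beside 11.5% of all genes in both lists, among them Sox17 at 380 in iPSC and 89 in ESC, Foxa2 at 203 and 52, and Cxcr4 at 202 and 63. Of 10 autosomal trophoblast genes 7 were in both lists, and Tfap2c, at 72, and Krt7, at 35, were in ESC only. For these lists as well, the shares over all protein-coding genes were 63.5% in both, 2.64% in iPSC only and 4.67% in ESC only.

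The Hox genes, clustered regulators of body axis identity, had the highest ESC-only share of any list with more than 10 members. Of 39, 20 were in both lists, Hoxc5 and Hoxd4 in iPSC only, and 10 in ESC only, namely Hoxa3, Hoxa7, Hoxa11, Hoxb2, Hoxb4, Hoxb5, Hoxb13, Hoxc8, Hoxc11 and Hoxd3. The ESC heights of those 10 were from 23 to 53, beside a median of 44 over the whole ESC list. Over stretches assigned to Hox genes, 27.5% in iPSC were iPSC-only and 48.5% in ESC were ESC-only, beside 35.2% in iPSC and 29.0% in ESC for all genes. Over all genes 2.64% had an end stretch in iPSC only and 4.67% in ESC only. Neighbouring Hox genes share stretches, such as the one at Hoxb7 and Hoxb8, so the genes are not independent sites.

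**Figure D5:**
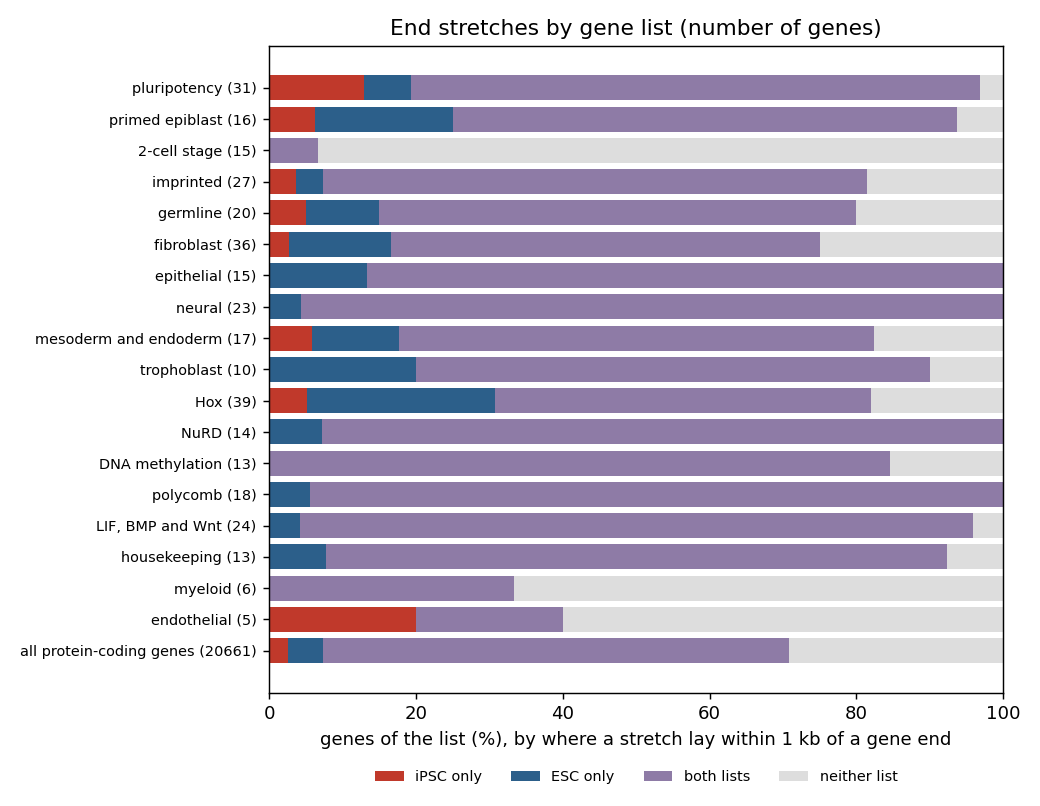
Share of the genes of each list (%, number of genes in parentheses) with an end stretch in iPSC only (red), ESC only (blue), both lists (purple) or neither (grey), with all 20661 protein-coding genes in the bottom row. Of the Hox genes 2 were in iPSC only and 10 in ESC only, and of the pluripotency genes 4 in iPSC only and 2 in ESC only.

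Genes of chromatin complexes and signalling pathways were in both lists with few exceptions. Mbd3 itself, whose alleles differ by the labels, had an end height of 143 in iPSC and 260 in ESC, with 327 in MEF of the same strain entry as the iPSC. A stretch inside the gene, at chr10:80394981-80395850, had 82 in ESC and no overlapping iPSC stretch. These unscaled heights do not check the genotype, and no source used here says which part of the gene is deleted. Of 14 NuRD genes 13 were in both lists and Chd3, a helicase subunit, was in ESC only at 26. Of 18 Polycomb genes 17 were in both lists and Phf19 was in ESC only at 30. The Polycomb genes in both lists had a median height of 80 in iPSC and 138 in ESC. The iPSC stretch was the taller at 2 of 17, Ezh2 and Rnf2, beside 52.4% of all genes in both lists. Other lists had low shares as well, with the iPSC stretch taller at 4 of 13 NuRD, 4 of 11 DNA methylation and 4 of 11 housekeeping genes. At imprinted genes it was the taller at 15 of 20. Phf1 had 60 in iPSC and 168 in ESC and Cbx2 had 54 and 155. The DNA methylation genes had 11 of 13 in both lists. Dnmt1 and Dnmt3a had no stretch at the outermost gene ends, but the inner start of Dnmt1 had 150 in iPSC and 146 in ESC. Inner starts of Dnmt3a had 60 in iPSC and 85 in ESC, and farther into the gene 70 in iPSC and 88 in ESC. In the list of LIF, BMP and Wnt signalling genes 22 of 24 were in both, and Axin2, a negative regulator and target of Wnt signalling, was in ESC only at 52 by its outermost end. Its inner start had 191 in iPSC and 182 in ESC. Socs3, a target and inhibitor of STAT3, had 62 in iPSC and 201 in ESC. Of 13 autosomal housekeeping genes 11 were in both, Gusb was in ESC only at 36, and Ywhaz had no end stretch in either list.

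Markers of other cell types were counted as well. Of 36 fibroblast genes 22 had an end stretch in iPSC and 26 in ESC, against 34 in MEF and 22 in the intermediate. Of all protein-coding genes, 66.1% had one in iPSC, 68.1% in ESC, 65.5% in MEF and 63.3% in the intermediate. The summed end heights of the fibroblast genes were 2283 in iPSC, 1881 in ESC, 3356 in MEF and 1518 in the intermediate. These sums are not scaled to library size, so they do not compare accessibility between the libraries. The genes in ESC only were Col1a1 (51 in ESC, 168 in MEF), Pdgfrb (30 and 72), Acta2 (38 and 146), Tagln (41 and 159) and S100a4 (30 and 158), and Ddr2 was in iPSC only at 47. Col3a1, Col6a3 and Postn, which had end stretches in MEF, had none in iPSC or ESC. Runx1 had none at its outermost ends in iPSC or ESC, but its inner start had 162 in iPSC and 186 in ESC. The part of fibroblast cells in the ESC-only stretches with a MEF peak was not tested. Of 15 epithelial genes 13 were in both lists, and Ovol1, at 27, and Rab25, at 39, were in ESC only. Myeloid genes had end stretches at 2 of 6 in both iPSC and ESC, namely Cd68 (45 in iPSC, 107 in ESC) and Spi1 (88 and 83). Ptprc, Csf1r, Itgam and Lyz2 were at 0 in iPSC and ESC. Endothelial genes had them at 2 of 5 in iPSC, Cdh5 at 51 and Tek at 84, and at 1 of 5 in ESC, Tek at 29. Pecam1, Tie1 and Emcn were at 0 in iPSC and ESC.

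The miRNA clusters of pluripotent cells were open in both lists. The miR-290 to miR-295 cluster on chromosome 7 had a tallest stretch within 5 kb of 193 in iPSC and 158 in ESC, and the miR-302 and miR-367 cluster on chromosome 3 had 54 in iPSC and 122 in ESC. Neither cluster had a stretch in MEF. At the miR-302 and miR-367 cluster the tallest ESC stretch lay over the hairpins and the tallest iPSC stretch past them. Over 919 autosomal miRNA hairpins, 40 had a stretch within 1 kb in iPSC only, 49 in ESC only, 190 in both and 640 in neither. The clusters hold miRNAs of several seeds. These 3 mature miRNAs, shown because they come from both clusters and share a seed, are RefSeq sequences with the seed, bases 2 to 8, in capitals.
mmu-miR-302d-3p, chr3:127545665-127545687, plus strand: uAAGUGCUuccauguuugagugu
mmu-miR-294-3p, chr7:3220691-3220712, plus strand: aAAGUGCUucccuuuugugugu
mmu-miR-295-3p, chr7:3220815-3220837, plus strand: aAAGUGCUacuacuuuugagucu

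The tallest one-list-only stretches were sites of unusual height. In iPSC, the first was at chr6:103648701-103649720 in Chl1, a neural adhesion gene, with a height of 49401. It had 93490 in MEF and 58135 in the intermediate, and no listed ESC peak overlapped it. The second and the fourth, at chr11:3190721-3198730 and chr11:3183901-3190701 in Sfi1, had 9486 and 704 and no MEF or intermediate peak. The median height of the whole iPSC list was 51, and the placement of reads at the Chl1 and Sfi1 sites was not checked. The third was the Pou5f1 stretch, and the fifth, at chr2:105475771-105477130, had 504 and lay 76.5 kb from Rcn1. In ESC, the first was at chr18:40307901-40308800 in Kctd16, at 2390, with 983 in the intermediate. It was followed by chr14:69161671-69162620 at 791, 9.18 kb from Nkx2-6, by chr13:53269381-53270320 in Ror2 at 758, by chr12:41514961-41515460 in Immp2l at 638 and by chr2:181918261-181919371 at 617. The sites in Ror2 and Immp2l had 754 and 621 in MEF and no intermediate peak. Among the 10 tallest, 6 ESC-only stretches and 1 iPSC-only stretch had a MEF peak.

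Wide one-list-only stretches lay almost all in iPSC, with 20 of 29884 in iPSC and 2 of 20964 in ESC at 3 kb or wider. The ESC pair was at chr13:119596171-119603750 in Tmem267, at 7580 bp, and at chr6:47755421-47759480, at 4060 bp. Besides Pou5f1 and Sfi1, the iPSC set had 8190 bp at chr10:27818251-27826440 and 6 stretches near the start of chromosome 14. That segment, from 3 to 8 Mb, was chosen after its values were seen. It held 225 stretches in iPSC, of which 147 were iPSC-only, against 99 in ESC, of which 4 were ESC-only, 70 in MEF and 67 in the intermediate. It contains many predicted genes of repeated families, such as Gm10340 and Gm3500, where near-identical copies make the placement of reads uncertain.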

How the data were processed

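ATAC-seq peak lists of 4 mouse libraries, 1 per cell population, were used. Per the file headers, the lists that the authors deposited hold the borders of each peak, the position of its summit and a height. This signal is in whole numbers of at least 5 and is not scaled to library size as far as the files show. Tools in the submitters' processing notes are Bowtie2, CASAVA 1.8.2, MACS 1.4.2-1 and Picard, with mm10 as the build. The sources used here give neither their roles and parameters nor read totals, so depth is unknown, and a site with no listed peak was not shown to be closed.

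Peaks at most 10 bp apart were joined, since 46974 neighbours in iPSC and 53518 in ESC lay exactly 10 bp apart, and lists were compared on the 19 autosomes at an overlap of 1 bp or more. Coordinates are as deposited and read as 1-based. Genes, promoters and miRNAs came from RefSeq tables whose assembly, GRCm38.p6, is that of mm10. Promoter windows matched 25748 autosomal genes, with none on chromosome 18. The overlap code was tested on simulated lists. Python 3.11.15, numpy 2.4.6, pandas 2.3.3, scipy 1.17.1 and matplotlib 3.10.9 were used. With 1 library a side no test across samples could be made, and shares carry Wilson 95% intervals.

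The members, gene lists and named genes were chosen with earlier results of these data known. The genes named are, for each direction, the 10 with the most one-list-only stretches, list members found in 1 list, and the 5 tallest one-list-only stretches. Further members and sites, with the windows and the chromosome 14 segment, were named after their values were seen. Alternatives were no joining, joining at 100 bp, lists cut to equal numbers of peaks before joining, a 50% overlap, keeping the taller 50%, adding the X chromosome, assignment of stretches within 20 kb and gene ends taken to 2.5 kb. Those for the gene density and CpG ratios were added after seeing the data.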

Additional observations from a re-analysis of the deposited data

Results flagged for a closer look

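Peaks on the Y chromosome were outside the comparison, which was confined to the autosomes. The iPSC list had 539 peaks there and the ESC list 391, against 34 in the intermediate and 50 in MEF. These counts were noted because they are signal in data that the comparison did not use. They are given as values only, since much of that chromosome is repeated sequence and the peak counts are not scaled to depth.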

How the results depend on the processing

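The order of the sets was kept in the main setting and under every alternative run, which are counted together here. The ESC-only share was above the iPSC-only share with a MEF peak in 7 of 7 settings, with an intermediate peak in 7 of 7 and at a gene end in 8 of 8, and the shared fraction of ESC was above that of iPSC in 7 of 7. Values outside the main intervals were as follows. Without joining, 64.6% of iPSC and 68.9% of ESC peaks were shared. iPSC-only and ESC-only peaks then had MEF peaks at 12.8% and 27.9%, intermediate peaks at 15.8% and 34.7%, and lay at gene ends at 5.79% and 15.4%. Joined at 100 bp, 71.8% of ESC stretches were shared, ESC-only stretches had MEF peaks at 22.6% and intermediate peaks at 30.7%, and 4.62% of iPSC-only and 9.41% of ESC-only stretches lay at gene ends. With a 50% overlap, 62.4% of iPSC and 69.8% of ESC stretches were shared. iPSC-only and ESC-only shares were then 11.01% and 22.0% with MEF peaks, 14.4% and 29.9% with intermediate peaks and 5.32% and 11.2% at gene ends. In the taller 50%, 65.2% of iPSC and 68.5% of ESC stretches were shared, iPSC-only and ESC-only stretches had MEF peaks at 11.5% and 25.4% and lay at gene ends at 5.25% and 13.2%, and ESC-only stretches had intermediate peaks at 34.2%. A gene-end window of 2.5 kb gave 9.37% for iPSC-only and 17.98% for ESC-only stretches. The number of iPSC-only stretches per ESC-only stretch was 0.407 without joining and 0.388 in the taller 50% for windows of 20 or more genes, and 1.82 and 1.78 for windows of 1 to 4 genes. The causes of these shifts were not tested. Of 54 counts by gene list, 12 moved by over 1.5 times in the taller 50% and 9 with the 2.5 kb window. Of 20 counts for named genes, 11 moved without joining, 8 in the taller 50% and 2 with assignment within 20 kb (BC107364 and Tmem132c). Cutting the lists to equal numbers of peaks left 81854 iPSC and 72269 ESC stretches, so the unequal numbers of stretches were not removed. No paired analysis was possible because each group has 1 library. Depth is unknown, so low peaks missing from a list cannot be told from closed sites.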
